A study of Gallus gallus with 12 samples.

Results

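In whole lung of white leghorn chick embryos, a rule chose 152 of 21390 transcripts as higher on the same 4 of 12 arrays than on the other 8. The difference, which the rule bounds, had a median of 0.63 log2 units. Within single stages its median ran from 0.48 at E16 to 0.98 at E18, where replicate 3 read low. The 4 arrays were E15 replicates 1 and 2, E16 replicate 3 and E18 replicate 2. The 8 others were replicates 1 and 3 of E18, replicates 1 and 2 of E16, replicate 3 of E15 and the whole of E14. The 152 transcripts were chosen by their measured values. A transcript was taken when all 12 of its log2 values were at least 8, when the lowest of the 4 arrays was above the highest of the 8, and when the mean of the 4 exceeded the mean of the 8 by 0.2 to 1.5 log2 units. Of the 21390 transcripts, 13860 had all values at least 8. The difference between the 4 and the 8 arrays is thus described below without a test, since it chose the transcripts and the split of the arrays was itself drawn from these data.

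The study followed the lung at embryonic days 14, 15, 16 and 18 (E14 to E18), the period in which the thin barrier between air and blood forms in the bird, with 3 biological replicates of untreated embryos at each stage. Labeled cDNA made from total RNA was hybridized to custom NimbleGen chicken arrays, 1 array per sample. The deposited values are log2 signals normalized by the authors. Neither the sex of the embryos nor the number of embryos per sample was stated in the sources used here, and no sex was given to any array. The whole organ was measured, so that fewer cells of a type and less RNA per cell cannot be told apart.

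Birds have a pair of Z chromosomes in males and a Z with a W in females, the reverse of the mammalian arrangement. They have no counterpart of the mammalian silencing of a whole X chromosome, and compensation for the copy number of the Z is known to be incomplete and to vary from gene to gene. Many Z-linked chicken genes are therefore higher in males than in females, on average by less than the doubling that gene copies alone would give. A doubling is 1 on the log2 scale of the arrays. The deposited table lists Ensembl transcript identifiers without gene names or chromosomes, and the gene table used here, which is of a later assembly, held 0 of the 21390 identifiers. The chromosomes of the 152 transcripts, their functions, their sequences and the cell type markers of the lung were therefore not analysed here, and whether the transcripts are Z-linked was not tested.

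A few arrays stood apart from the rest, and they bear on every value given here. The SD of all log2 values was 2.21 on E18 replicate 3, 2.38 on E18 replicate 2, 2.44 on E15 replicate 3 and 2.51 on E16 replicate 1, and between 2.58 and 2.62 on the other 8 arrays. The lowest correlation across transcripts between arrays of a stage was 0.979 at E14, 0.92 at E15, 0.96 at E16 and 0.741 at E18. Of these 4 narrow arrays, 1 belongs to the 4 on which the 152 transcripts were high and 3 belong to the 8. Differences are also given without E15 replicate 3 and E18 replicate 3, which leaves 6 arrays on the low side. Both were picked after the data were seen. E18 replicate 2, which was narrower than E15 replicate 3, and E16 replicate 1 were kept, so that arrays were left out of the low side only.

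With each transcript set against its own mean at E14, the 152 transcripts were raised by similar amounts on the 4 arrays. The median of this difference was 0.49 on E15 replicate 1, 0.52 on E15 replicate 2, 0.47 on E16 replicate 3 and 0.36 on E18 replicate 2. On 6 of the 8 other arrays, 3 of them the E14 arrays that set the zero, it lay between -0.04 and 0.01. It was -0.18 on E15 replicate 3 and -1.18 on E18 replicate 3. The rule itself parts the arrays within E15, E16 and E18, so that each of these stages has raised arrays. Their other arrays lay near or below the level of E14.

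**Figure D1:**
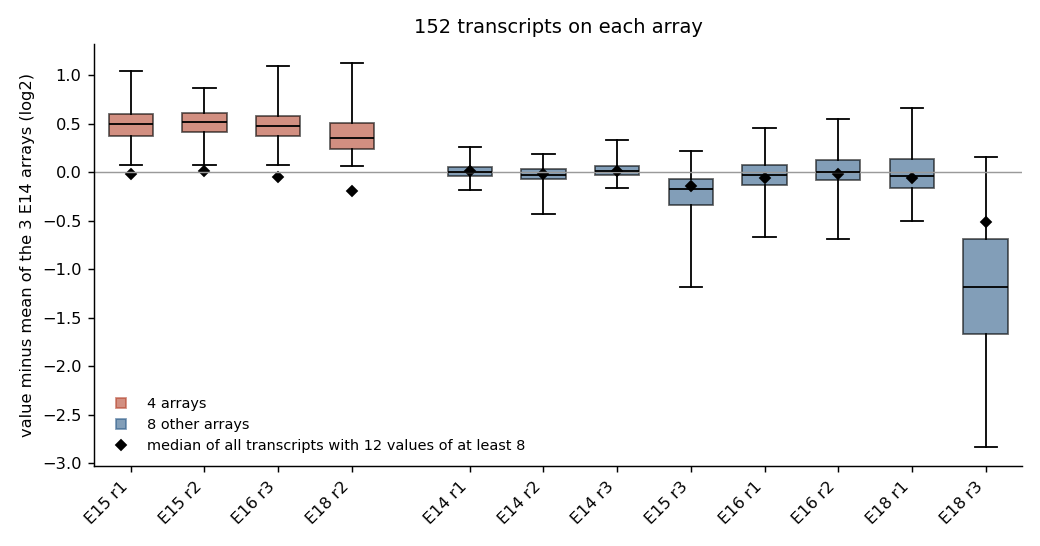
Difference of the 152 transcripts from their own mean over the 3 E14 arrays (log2, y axis) on each of the 12 arrays (x axis), with boxes from the lower to the upper quartile, a line at the median and whiskers to the lowest and highest transcript; diamonds are the medians of the 13860 transcripts with all values at least 8. The 4 arrays on the left have medians between 0.36 and 0.52, while the diamonds lie between -0.19 and 0.01 there, and E18 replicate 3 is far below all others.

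All 152 transcripts were above their E14 mean on each of the 4 arrays, as the rule requires, and the smallest such rise was 0.06. For all 13860 transcripts the median difference from E14 was -0.02 on E15 replicate 1, 0.01 on E15 replicate 2, -0.05 on E16 replicate 3 and -0.19 on E18 replicate 2. The 4 arrays as a whole were thus not shifted upward. On E18 replicate 3 the opposite holds in part. There the 5274 other transcripts in the middle level range of the set, between 11.14 and 12.69, were also below E14, with a median of -0.72 against -1.18 for the 152. This array gave the lowest value in 144 of the 152 transcripts.

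The transcript with the widest gap between the 4 and the 8 arrays was ENSGALT00000005708. Among the 4 arrays it read 12.82 and 12.90 at E15 (replicates 1 and 2), 12.83 at E16 (replicate 3) and 12.85 at E18 (replicate 2). On the 8 others it read 12.24, 12.12 and 12.24 at E14, 12.24 on E15 replicate 3, 12.24 and 12.18 on E16 replicates 1 and 2, 12.23 on E18 replicate 1 and 11.14 on E18 replicate 3. Its values thus fell on 2 narrow levels across the stages, with a gap of 0.58 between them and E18 replicate 3 alone below both. The mean was 12.85 ± 0.04 on the 4 arrays (SD, n = 4) and 12.08 ± 0.38 on the 8 (SD, n = 8), a difference of 0.77 or 1.71-fold. Without E15 replicate 3 and E18 replicate 3 the low side was 12.21 ± 0.05 (SD, n = 6), and the difference was 0.64 or 1.56-fold.

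ENSGALT00000037675 came next, with a gap of 0.55. The same 4 arrays read 12.66 and 12.65 at E15, 12.60 at E16 and 12.54 at E18. On the 8 others it read 11.99, 11.78 and 11.94 at E14, 11.72 on E15 replicate 3, 11.93 and 11.98 on E16 replicates 1 and 2, 11.85 on E18 replicate 1 and 10.71 on E18 replicate 3. The same arrays were high and the same array was lowest as in ENSGALT00000005708. The mean was 12.61 ± 0.05 on the 4 arrays (SD, n = 4) and 11.74 ± 0.43 on the 8 (SD, n = 8), a difference of 0.87. It was 0.70 or 1.62-fold without E15 replicate 3 and E18 replicate 3.

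**Figure D2:**
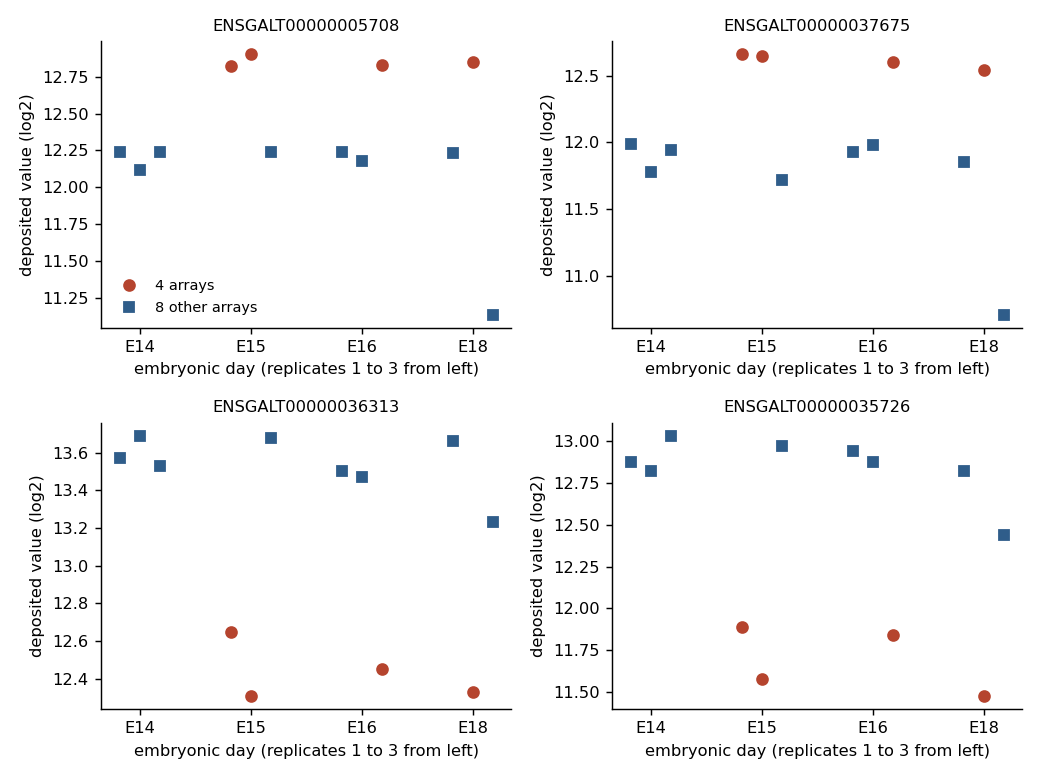
Deposited log2 value (y axis) by embryonic day (x axis, replicates 1 to 3 from left within a day) of ENSGALT00000005708 and ENSGALT00000037675, which have the widest gaps with the 4 arrays above the 8, and of ENSGALT00000036313 and ENSGALT00000035726, which have the widest gaps with the 4 arrays below; circles are the 4 arrays and squares the 8 others. In the first pair the circles lie at 12.54 or above and the squares at 12.24 or below, and in the second pair the circles lie below every square of the same transcript. Each panel has its own y axis, which does not start at 0.

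Over the 152 transcripts the gap between the lowest of the 4 arrays and the highest of the 8 was small in most and wide in few. The 4 arrays were above the 8 in 153 of the 13860 transcripts, or 1.1%, and 1 of these was left out because its difference of means was 0.12. The gap exceeded 0.1 in 98 transcripts, 0.2 in 57, 0.3 in 21 and 0.4 in 3. At the edge of the rule, 3 transcripts just inside had gaps of 0.0008, 0.002 and 0.0026 with differences of means of 0.61, 0.47 and 0.98. The nearest 3 outside had gaps of -0.0011, -0.0028 and -0.0041 with differences of 0.73, 0.35 and 0.34. A further 74 transcripts met the other conditions with a gap between -0.1 and 0. The set thus has no sharp border, and its size depends on where the gap is cut. The floor removed 12 transcripts that met the other conditions, and their lowest values ran down to 5.84. No transcript with a gap came near the upper bound on the difference, since the largest difference was 1.06.

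The reverse pattern, with the same 4 arrays all below the 8, was less frequent. Under the same floor and bounds 7 transcripts had it, against the 152 with the 4 arrays above. Without E15 replicate 3 and E18 replicate 3 the counts were 37 below and 162 above, among 14486 transcripts past the floor. Leaving out arrays eases both the floor and the need for a gap. The median difference of all transcripts past the floor was then -0.05, instead of 0.03. The cause of the larger reverse count was not tested. Past the floor but with no bounds on the difference, 13 transcripts had the 4 arrays below, and 11 of these had a gap over 0.4. Of the 153 with the 4 arrays above, 3 did. By this count without bounds, transcripts with the 4 arrays below were fewer and more often widely parted. The choice shapes both traits. The split was drawn from transcripts that were on or off in these data, and the floor removes those that were off on the 4 arrays. ENSGALT00000036313 read 12.65 and 12.31 at E15, 12.45 at E16 and 12.33 at E18 on the 4 arrays, against values between 13.23 and 13.69 on the 8 other arrays. Its difference was -1.11. For ENSGALT00000035726 the mean was 11.70 ± 0.20 on the 4 arrays (SD, n = 4) and 12.84 ± 0.18 on the 8 (SD, n = 8), a difference of -1.15.

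**Figure D3:**
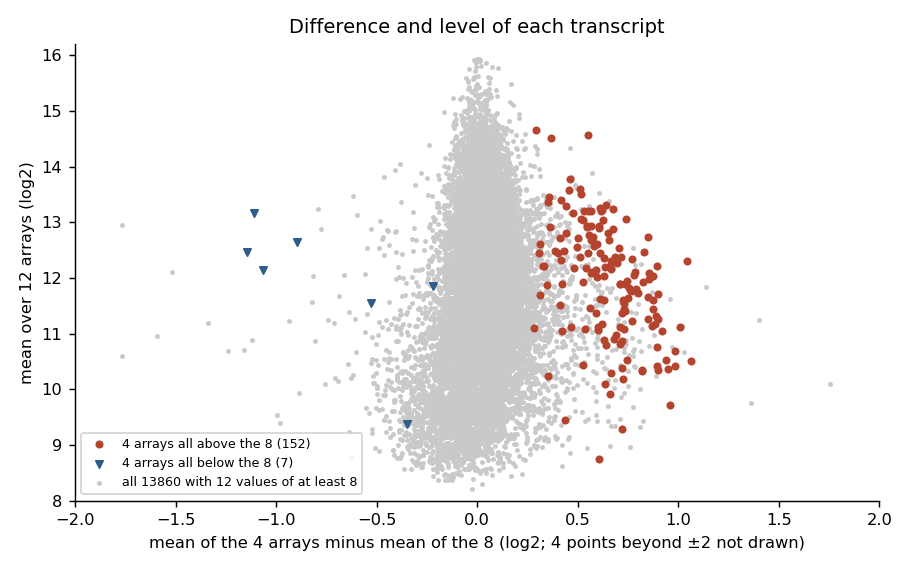
Mean of the 4 arrays minus mean of the 8 (log2, x axis) against the mean over the 12 arrays (log2, y axis) for the 13860 transcripts with all values at least 8; circles are the 152 transcripts with the 4 arrays all above the 8 and triangles the 7 with the 4 arrays all below. The circles lie between 0.28 and 1.06 over the whole range of levels, and 4 points beyond 2 log2 units are not drawn.

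Apart from these, 25 transcripts beyond the bounds were lower on the same 4 arrays by gaps of 3 log2 units or more. The median over these 25 ran from 5.16 to 6.26 among the 4 arrays, against 13.61 to 14.05 among the 8. No transcript had a gap of that size in the direction of the 152. The split of the arrays was drawn from transcripts that were on or off in these data. These 25 are of that kind and give no separate support for the split.

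The size of the difference in the 152 transcripts ran from 0.28 to 1.06 with a median of 0.63, or 1.55-fold, and the quartiles were 0.53 and 0.75. The median over all 13860 transcripts was 0.03. The low reading of E18 replicate 3 enters the mean of the 8 arrays, and without it and E15 replicate 3 the median difference fell to 0.47, or 1.39-fold, with quartiles of 0.39 and 0.56 and a highest value of 0.77. In that form 88 of the 152 lay between 0.4 and 0.6, and 0 reached a doubling, which is 1 on this scale. With all 12 arrays 3 of the 152 did. The lower bound of 0.2 and the need for a gap shape the left side of this distribution, while its right side is not limited by the rule until 1.5.

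The 3 later stages could be looked at separately, as each held arrays of both kinds. At E16, replicate 3 exceeded the mean of replicates 1 and 2 by a median of 0.48, or 1.40-fold, with quartiles of 0.37 and 0.60 and a highest value of 0.98, so that none of the 152 reached 1. At E15, the mean of replicates 1 and 2 exceeded replicate 3 by a median of 0.67, and 22 transcripts reached 1. At E18, replicate 2 exceeded the mean of replicates 1 and 3 by a median of 0.98, and 75 transcripts reached 1. The E18 value depended on replicate 3, because replicate 2 exceeded replicate 1 alone by a median of 0.40, with 1 transcript at 1 or more. For all 13860 transcripts the same differences had medians of -0.02 at E16, 0.13 at E15 and 0.08 at E18, and -0.14 for E18 replicate 2 minus replicate 1.

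**Figure D4:**
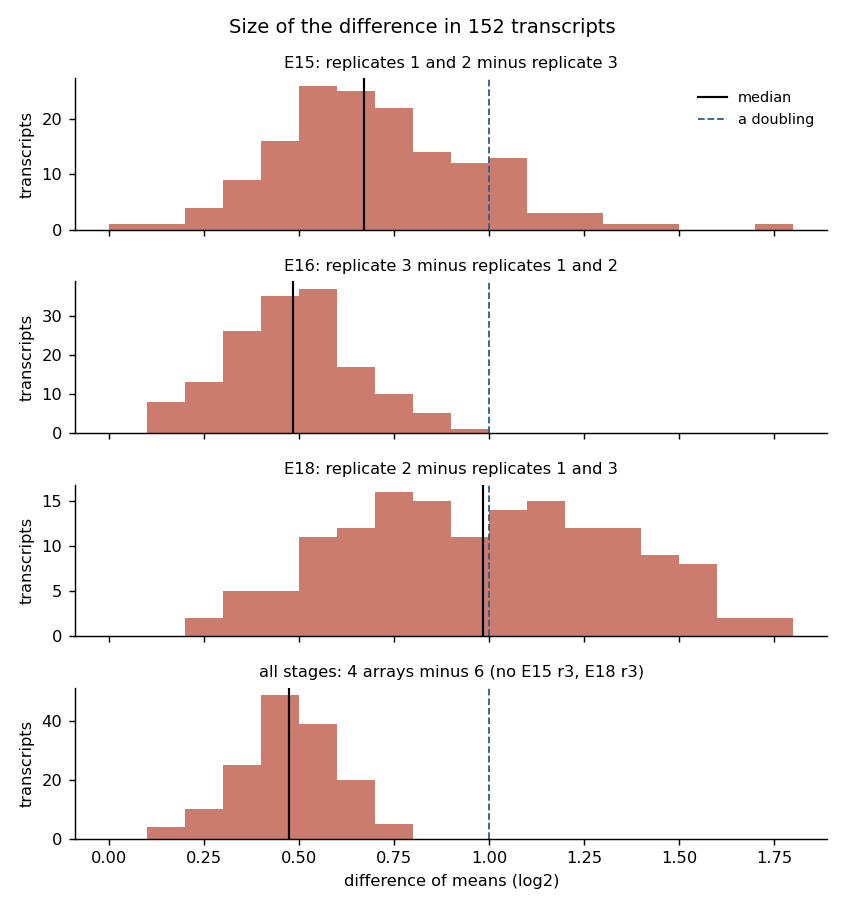
Number of the 152 transcripts (y axis) by difference of means on the log2 scale (x axis) within E15, within E16, within E18 and over all stages without E15 replicate 3 and E18 replicate 3; solid lines are medians and dashed lines a doubling. The medians are 0.67, 0.48, 0.98 and 0.47, and the last panel has no transcript at a doubling.

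Transcripts with a larger difference at one stage tended to have a larger one at the others. Across the 152 transcripts, which are not independent and share arrays, Pearson's r between the differences was 0.528 for E15 and E16, 0.644 for E15 and E18 and 0.427 for E16 and E18. The difference was larger at E15 than at E16 in 136 of the 152 and larger at E16 than at E18 in 7. The rule chose the transcripts by the values behind these differences, so that the correlations are a description only. E15 and E18 are the stages whose low side holds E15 replicate 3 and E18 replicate 3. Over all transcripts the deviations of these 2 arrays from their stage means correlated at 0.685. Their part in the correlations and in the order of the stages was not tested.

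Within each side the values lay close together. The SD of a transcript over the 4 arrays had a median of 0.11, and that over the 6 low arrays without E15 replicate 3 and E18 replicate 3 had a median of 0.11. For all 13860 transcripts these medians were 0.22 and 0.18. The rule favours a small spread, since a transcript with a large spread would not leave a gap. With E15 replicate 3 and E18 replicate 3 included, the SD over the 8 arrays had a median of 0.43 in the 152.

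The 152 transcripts covered most of the range of levels past the floor. Their mean over the 12 arrays ran from 8.74 to 14.66 with a median of 12.03, against a median of 11.83 for the 13708 other transcripts with values of at least 8. Divided by level into 3 parts, the 51 lowest had a median difference of 0.72, the 50 in the middle 0.69 and the 51 highest 0.55. Without E15 replicate 3 and E18 replicate 3 the medians were 0.50, 0.49 and 0.45, so that most of the decline with level came with these 2 arrays.

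Leaving an array out of the choice gives a further description, but no separate support. The split of the arrays was drawn from data that included the array left out. For each of the 4 arrays, the transcripts above on it were the 152 themselves. The shares below thus differ only by how many were chosen without that array. When transcripts were chosen on 11 arrays without E16 replicate 3, 159 met the rule, and E16 replicate 3 was above all 8 low arrays in 95.6% of them, compared with 7.38% of all transcripts past the floor. Without E15 replicate 1 the rule gave 171 transcripts, of which 88.9% were above on that array, compared with 8.84% of all. Without E15 replicate 2 it gave 165, with 92.1% above and 11.1% of all. E18 replicate 2 differed. Without it the rule gave 281 transcripts, and 54.1% of these were above on E18 replicate 2, compared with 6.88% of all. In those 281 its median value was 0.37 over the mean of the 8 low arrays. This array had the second lowest SD of the 12, and it gave the lowest of the 4 values in 77 of the 152 transcripts.

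The stage of the embryo was compared by a model with a mean for each stage fitted to all 12 arrays. None of the 152 transcripts was called across the 4 stages, where the moderated F-test of limma with Benjamini-Hochberg adjustment called 4.41% of all 21390 transcripts at 0.05. The test across the stages that the methods name also called 0 of the 152 after adjustment, and 4.17% of all transcripts. At an unadjusted F-test p under 0.05 the number was 0 of the 152, where 24.7% of all transcripts had such a p. For E18 against E14, limma called none of the 152 higher and none lower at E18, compared with 6.83% higher and 12.6% lower among all transcripts, and 1 of the 152 had an unadjusted p under 0.05, where 45.7% of all transcripts did. The rule itself bears on these counts. It parts the arrays within E15, E16 and E18, which widens the spread within stages in every one of the 152. Of its 4 high arrays it places 0 at E14, 2 at E15, 1 at E16 and 1 at E18, which shapes the stage means as well. The counts are thus a description that the choice largely shaped, and a low count says little about stability over time.

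The median log2 fold change of the 152 from this fit, E18 minus E14, was -0.27, and that of all 13860 transcripts past the floor was also -0.27. Over the 8 low arrays alone it was -0.62 for the 152 and -0.29 for the 13860. E18 replicate 3 is 1 of the 2 E18 arrays in that fit. For ENSGALT00000005708 it was -0.13 (standard error 0.38, adjusted p = 0.8 by limma) and for ENSGALT00000037675 -0.20 (standard error 0.43, adjusted p = 0.721 by limma). Both estimates were smaller than their standard errors. When only the 8 low arrays were fitted, with the lone E15 array assumed to vary like the others, limma again called 0 of the 152 across the stages and 0 between E18 and E14. It called 0.0234% and 0.262% of all transcripts in these comparisons, so that 0 was near the background. For E18 against E14, 14 of the 152, or 9.21%, had an unadjusted p under 0.05, compared with 22.6% of all transcripts. With E15 replicate 3 and E18 replicate 3 left out, 5 of the 152 were called higher at E18 than at E14, and 20.9% of all transcripts were called in either direction.

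The identifiers of the 152 transcripts were unevenly spread, a property the rule did not use. Identifier numbers are not genome positions, and transcripts of the same gene may have neighbouring numbers and share probes. When the 13860 transcripts were ordered by the number in their identifier, 7.24% of the places next to one of the 152 were held by another of them (22 of 304 places), where the 152 made up 1.1% of all. With 5 places on each side the share was 6.18%. Among these neighbours, 3 pairs had consecutive numbers. Runs of the 152 in this order were short, with 7 runs of 2 and 2 runs of 3, and the other 132 stood alone.

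In bins of 250 transcripts along this order, 3 adjacent bins, which cover the numbers 23370 to 25459, held 27, 12 and 17 of the 152. These 3 bins hold 5.41% of the 13860 transcripts and 36.8% of the 152. No other bin held more than 9, and 25 of the 56 bins held none. The bins were fixed in width, but the 3 were picked for their counts, and no test was made of them. The transcripts of these 3 bins outside the set had medians of -0.005, -0.01 and -0.02, as the mean of the 4 arrays minus that of the 6 low arrays, and upper quartiles of 0.08, 0.13 and 0.08. The median in the other bins ran from -0.08 to -0.02, so that at least the last of the 3 did not stand apart from them by this measure. Taking out the 152 lowers the median most in the bins that hold most of them. With the 152 kept in, the medians of the 3 bins were 0.021, -0.003 and -0.003, against -0.079 to -0.012 in the other bins. Against all 8 low arrays, again with the 152 kept in, the medians of the 3 bins were 0.117, 0.075 and 0.071. No other bin was above 0.049. The 152 were chosen by this difference and add to these medians. A later bin, with the numbers 35031 to 35952, had an upper quartile of 0.17, although it held only 2 of the 152. It was the only other bin above all 3 in this quartile, and its median against all 8 low arrays was -0.057, the lowest of the bins.

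**Figure D5:**
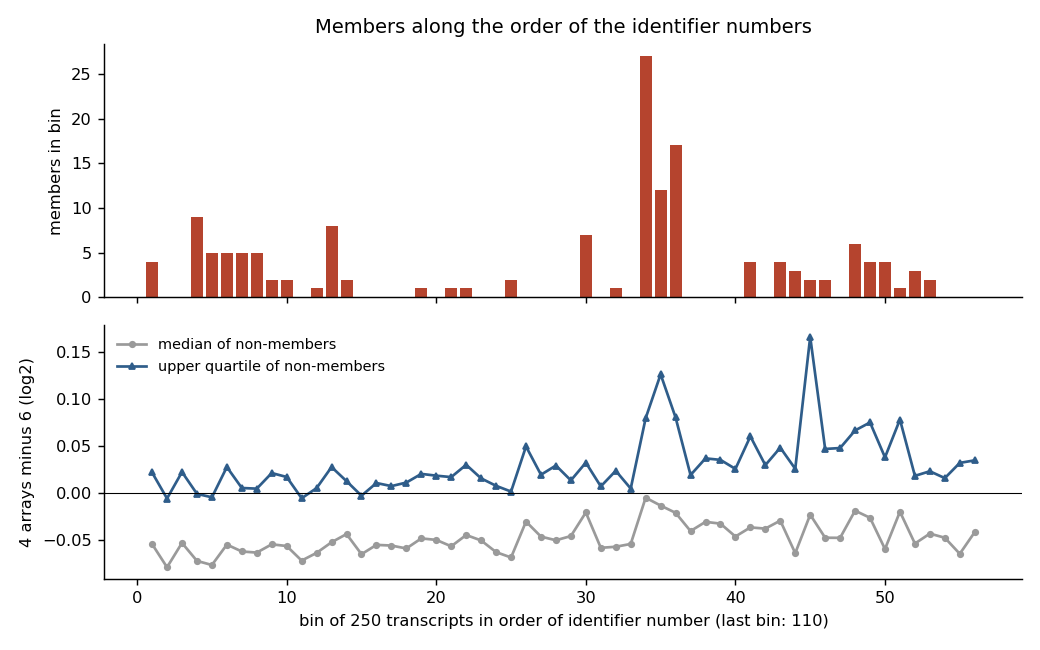
Top, number of the 152 transcripts in each bin of 250 transcripts in the order of identifier numbers (the last bin holds 110); bottom, the median (dots) and the upper quartile (triangles) of the mean of the 4 arrays minus that of the 6 low arrays (log2, y axis) for the transcripts of each bin outside the set. Bins 34 to 36 hold 27, 12 and 17 of the 152, and no other bin holds more than 9.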

How the data were processed

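RNA of 12 whole-lung samples, 3 at each of 4 stages, was measured on custom NimbleGen arrays. Per the methods, signals were normalized with RMA (Robust Multi-array Analysis) and handled in DNASTAR ArrayStar, and the table deposited by the authors holds 1 log2 value for each transcript on each array. The software version and the Ensembl release were not given in the sources used here. RMA makes the distributions of probe signals alike and can compress differences near the limits of the scale. The 1 control feature was left out.

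Transcripts were chosen by the stated rule with no further normalization. The rule allows at most 300 members, a limit that was not reached. Stages were compared with limma 3.58.1 in R 4.3.3, with a mean per stage and Benjamini-Hochberg adjustment over 21390 transcripts at 0.05, and the fit was tested on simulated data. Python 3.11.15 with pandas 2.3.3, numpy 2.4.6 and matplotlib 3.10.9 did the rest. Transcripts named are the 2 with the widest gap in each direction. The members, the split of the arrays and the lists were chosen with earlier results of these data known. Gene names were not analysed here, and no other grouping of the arrays was drawn. Alternatives were other floors, bounds and gaps, median centring, quantile and cyclic loess normalization, leaving out arrays, the replicate block and other tests. The number of arrays limits the precision.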

Additional observations from a re-analysis of the deposited data

How the results depend on the processing

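The number of transcripts that met the rule was 152, and it was 98 with a gap of at least 0.1. It lay between 131 and 208 over the other floors, bounds and normalizations, of which cyclic loess gave 208, with 128 of the 152 among them. With 1 array left out in turn it ran from 152 to 281, and was highest without E18 replicate 2. The reverse set held between 7 and 13 transcripts over the normalizations. The median difference of the 152, 0.63, was 0.74 as the mean of the differences within stages, 0.52 as a difference of medians and 0.47 without E15 replicate 3 and E18 replicate 3. It ran from 0.49 to 0.67 with 1 array left out in turn, lowest without E18 replicate 3. The 2 arrays were left out together after the data were seen. The count called across the stages was 0 in every setting run, the methods' one-way ANOVA and leaving out each array included. With 1 array left out, between 1.05% (without E18 replicate 2) and 40% (without E18 replicate 1) of all transcripts were called. The rule widens the spread within stages and shapes the stage means, so that a count of 0 says little about stability over time. Between E18 and E14 it was 0, but 1 after quantile normalization, 3 after cyclic loess and 5 without E15 replicate 3 and E18 replicate 3, settings that called 17%, 21.7% and 20.9% of all transcripts, and it ran from 0 to 1 with 1 array left out. With the replicate block 0 of the 152 were called in either comparison, and 396 of all transcripts across the stages instead of 943. Same-numbered arrays of different stages correlated in their deviations from the stage means between -0.616 and 0.685, with 3 of 18 pairs over 0.1. For differently numbered arrays the range was -0.715 to 0.701, with 15 of 36 pairs over 0.1. No pairing by number was seen, but these values cannot settle whether the samples were paired. The share of neighbouring places held by the 152 was 3.95% with 5 places on each side among all transcripts listed, of which the 152 make up 0.711%.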
